A study of Homo sapiens with 4 samples.

Results

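The 10 genes described here are established targets of the transcription factor p53 that act in cell cycle arrest or feed back on p53 itself: *CDKN1A*, *MDM2*, *PPM1D*, *CCNG1*, *TP53INP1*, *TP53I3*, *BTG2*, *ZMAT3*, *PHLDA3* and *PLK2*. They were taken by symbol from a table of 30843 genes, all 10 were found, and all 10 passed the filter on low values that left 17632 genes for testing. They were chosen by symbol with the measured difference between the groups with and without respiratory motion in view. The values of the 10 genes in that comparison are therefore a description and carry no test.

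Polyadenylated RNA came from A549, an epithelial line of human lung adenocarcinoma that the labels call wild type, grown on plastic in two-dimensional culture for 4 days. In the RM+ group, a plate sat in a chamber whose air pressure cycled between slightly negative and atmospheric pressure to imitate respiratory motion (RM). In the RM- group, a plate was kept in the same medium and incubator conditions without the pressure unit, so that the cycling and the chamber cannot be told apart. Each group had 2 samples, 1 in batch 1 and 1 in batch 2 by the labels, and the batch equals the replicate number. No source used here says whether these were separate cultures, so the spread between samples behind each p-value may be technical. In limma most of that spread is not the gene's own. The RM comparison had 2 residual degrees of freedom per gene, against a prior of 14.8 drawn from the trend over all genes. Of bulk RNA, a change in the share of cells that express a gene and a change in RNA per cell cannot be told apart.

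In an unstressed cell, p53 is held low because MDM2, a ubiquitin ligase encoded by a p53 target, sends it for degradation. When stress signals release p53, it binds DNA as a tetramer at paired half-sites and raises transcription of genes that halt the cell cycle, repair DNA or start cell death, and of genes such as *MDM2* and *PPM1D* that shut the response down again.

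The 4 samples held 18754356 to 20412283 reads counted to genes, and the members held between 202 reads (*BTG2*, RM- replicate 2) and 4611 reads (*PLK2*). The counting error per sample was thus between 1.47% and 7.04% of the value. Samples within a group were further apart than counting error alone gives. The leading principal component (41.9% of the variance) separated RM+ from RM- and the next (34.4%) separated the batches. All 6 epithelial markers were tested and their summed level was 108600 to 119700 normalized counts per sample, while the summed levels of endothelial (3.03 to 23.4) and immune markers (5.08 to 15.2) were near 0. Fibroblast markers summed to 134 to 159, nearly all of it *COL1A1*. The epithelial markers were uneven. *KRT8* alone had 52561 to 61629, while *EPCAM* had 45.4 to 67.9, below *COL1A1* (130 to 154). Mitochondrially encoded transcripts held 5.36% and 3.69% of all reads in RM- and 4.56% and 2.57% in RM+, lower in batch 2 than in batch 1 of either group. The part of these shares in the other results was not tested.

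All levels are normalized counts, that is reads per gene divided by a size factor for the sample. Fold changes are RM+ over RM- on the scale of log2(normalized count + 1), with a standard error (SE) from limma and 2 samples per group. Across all tested genes the median log2 fold change was -0.0029.

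The arrest genes are described first. *CDKN1A* encodes p21, an inhibitor of the cyclin-dependent kinases (CDKs) that drive entry into S phase. It had 1183 and 1035 normalized counts in the RM- samples and 2420 and 2399 in the RM+ samples. Both RM+ samples were about the same and lay far above both RM- samples, with a log2 fold change of 1.12 (SE 0.09), or 2.18-fold. It was the only member past the threshold of the study for differentially expressed genes (a log2 fold change above 1 at an unadjusted p below 0.05). The threshold was applied here to the limma fit, not to the authors' own comparison, so the genes that pass can differ from theirs. In that direction 0.749% of the tested genes passed it. The log2 fold change of *CDKN1A* ranked 108 of 17632.

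*BTG2* encodes an antiproliferative protein that binds the mRNA deadenylation complex. Its normalized counts were 241 and 193 in RM- and 326 and 327 in RM+. The RM+ samples lay above both RM- samples, and the RM- samples differed from each other more than the RM+ samples did. The log2 fold change was 0.60 (SE 0.14), or 1.51-fold, the largest SE of the 10 genes.

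*PLK2* encodes a polo-like kinase that acts in centriole duplication and checkpoint signalling. Its level was 4224 and 4408 in RM- and 4657 and 4514 in RM+, with a log2 fold change of 0.09 (SE 0.08). The groups did not overlap, but the difference was about as large as its SE.

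*CCNG1* encodes cyclin G1, which is known to bring the phosphatase PP2A to MDM2. Its level was 2262 and 2463.5 in RM- and 2352 and 2448.5 in RM+, so both RM+ samples lay between the RM- samples. Its log2 fold change was 0.02 (SE 0.09), the smallest of the 10 genes, and it was the only member whose groups overlapped.

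Of the genes that feed back on p53, *MDM2* had 1563 and 1704.5 normalized counts in RM- and 2339 and 2491 in RM+, a log2 fold change of 0.56 (SE 0.09) or 1.48-fold. Both RM+ samples lay above both RM- samples by several times the gap between replicates. *PPM1D* encodes WIP1, a phosphatase that removes activating phosphates from p53 and its upstream kinases. It had 329.9 and 275 in RM- and 338 and 359 in RM+, with a log2 fold change of 0.21 (SE 0.13). RM- replicate 1 lay close below the RM+ samples, and most of the difference came from RM- replicate 2.

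*TP53INP1* encodes a stress protein that works with the kinase HIPK2 in the phosphorylation of p53. Its level was 319.8 and 347 in RM- and 653 and 661 in RM+, a log2 fold change of 0.98 (SE 0.11) or 1.97-fold. After *CDKN1A* this was the largest fold change of the 10 genes, and replicates of either group lay close together.

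*PHLDA3* encodes a small protein that competes with the kinase AKT for membrane lipids and so restrains AKT signalling. Its level was 1539.5 and 1486.5 in RM- and 2061 and 2196 in RM+, a log2 fold change of 0.49 (SE 0.09) or 1.41-fold. *ZMAT3* encodes a zinc finger protein that binds RNA and affects splicing. It had 476 and 565 in RM- and 804 and 867 in RM+, a log2 fold change of 0.69 (SE 0.11) or 1.61-fold. In both genes the RM+ samples lay above the RM- samples.

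*TP53I3* encodes a quinone oxidoreductase linked to reactive oxygen species. Its level was 1233 and 1296 in RM- and 1522 and 1403.5 in RM+, with a log2 fold change of 0.21 (SE 0.09) or 1.16-fold. RM+ replicate 2 lay nearer to the RM- samples than RM+ replicate 1 did.

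**Figure D1:**
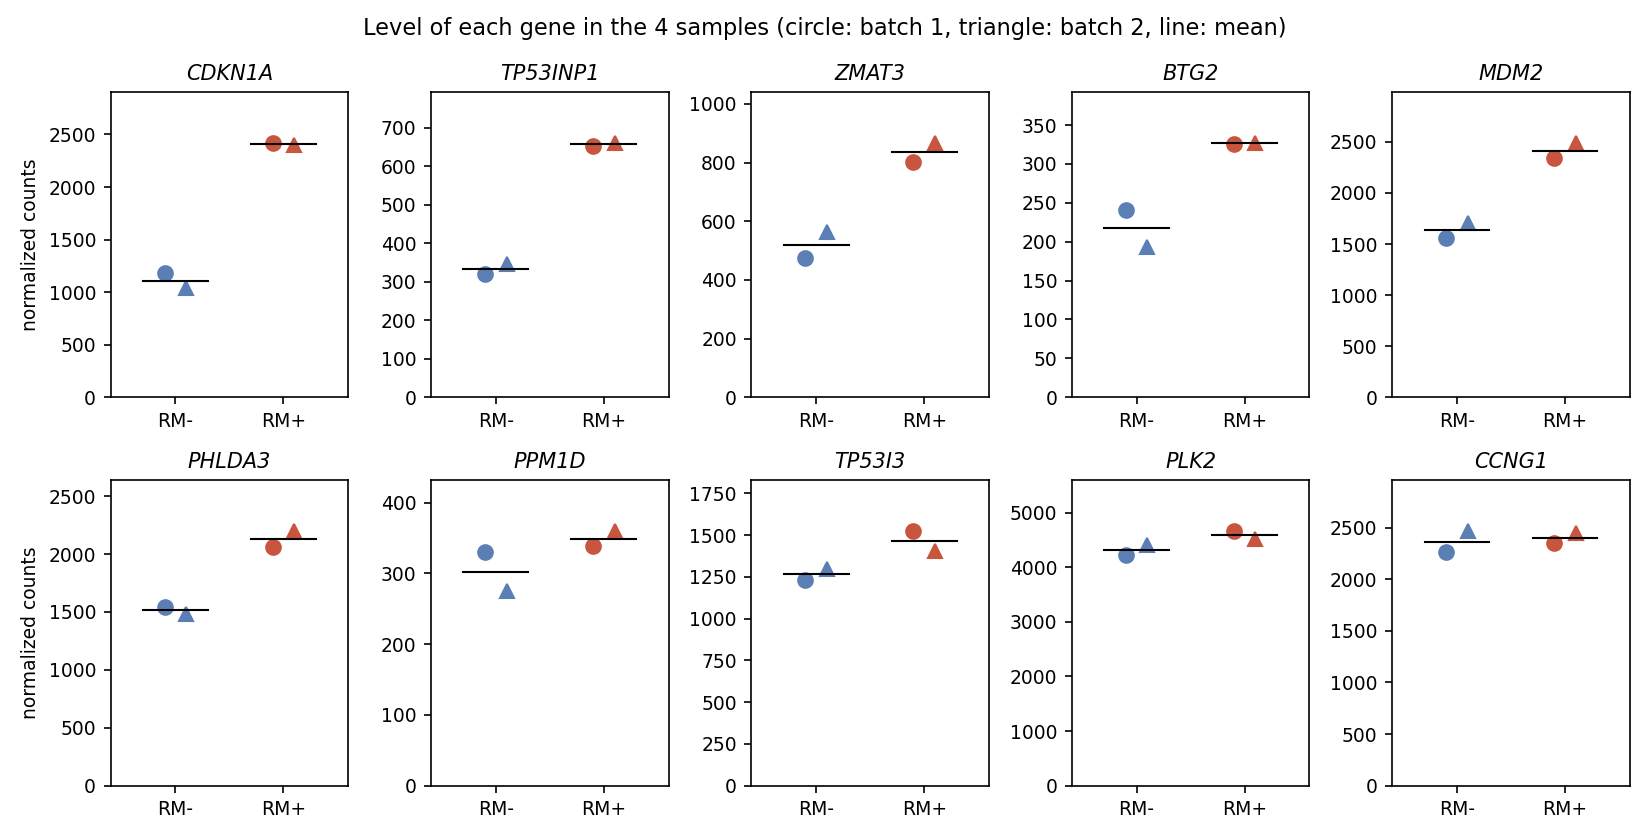
Normalized counts (vertical axes, each starting at 0) of the 10 genes in the 2 RM- and 2 RM+ samples, with circles for batch 1, triangles for batch 2 and a line at the mean. *CDKN1A* and *TP53INP1* stand about 2.18-fold and 1.97-fold higher in RM+, while *PLK2* and *CCNG1* have nearly level means.

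In 9 of the 10 genes both RM+ samples lay above both RM- samples, an arrangement that 22.2% of the tested genes showed, and the median log2 fold change was 0.53. At an adjusted p under 0.05 (limma, Benjamini-Hochberg over 17632 genes), 6 of the 10 were called higher, *CDKN1A*, *TP53INP1*, *ZMAT3*, *BTG2*, *MDM2* and *PHLDA3*, and none lower. Of all tested genes 1.46% were called higher, 0.794% lower and 2.26% in either direction. *BTG2* was not called by edgeR or DESeq2 on the recovered reads. The list was drawn up on this comparison, so neither count is evidence about the list. No member was called without the filter on low values, where no gene in the table was.

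Summed over the 10 genes, the level was 13371 and 13774 normalized counts in RM- and 17473 and 17668 in RM+. *CDKN1A* made up 32.5% of the difference between the group sums, *MDM2* 19.5% and *PHLDA3* 15.4%. *PLK2* and *CCNG1*, the genes with the smallest fold changes, held 49.2% of the summed level in RM-.

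Levels of different genes were compared per kilobase of exon, using the length of all annotated exons of a gene joined together, which understates genes with many rarely used exons. In RM-, *PLK2* was the highest with 905 normalized counts per kilobase, followed by *CCNG1* (763), *TP53I3* (547), *PHLDA3* (482) and *CDKN1A* (364). *MDM2* (123) and *BTG2* (78.7) came next, and none of these neighbours in the order overlapped between samples. *PPM1D* (60.0), *TP53INP1* (58.7) and *ZMAT3* (54.0) were the lowest and overlapped from each to the next.

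In RM+ the order per kilobase differed. *PLK2* stayed the highest with 962, and *CDKN1A* stood next with 790, overlapping *CCNG1* with 775. *PHLDA3* (678) overlapped *TP53I3* (633). Below them came *MDM2* (182), *BTG2* (118), *TP53INP1* (116), *ZMAT3* (86.6) and *PPM1D* (69.2), with no overlap between neighbours. *CDKN1A* thus went from the fifth level among the 10 genes to a level shared with *CCNG1*, and *PPM1D* went from the level of *TP53INP1* and *ZMAT3* to the lowest.

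**Figure D2:**
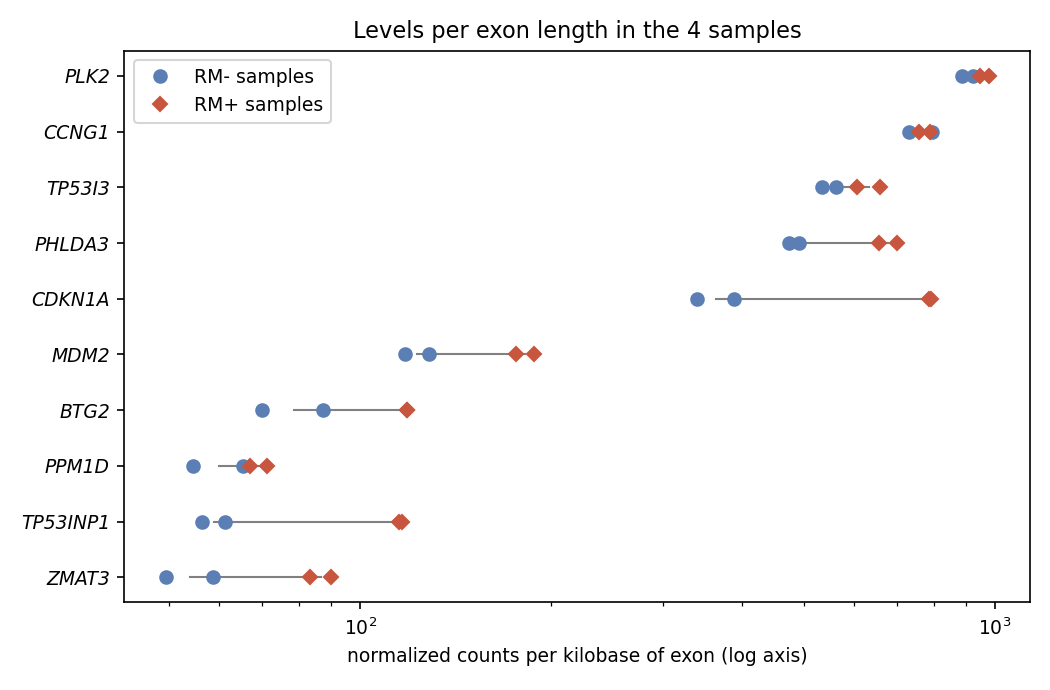
Normalized counts per kilobase of exon (log axis) of the 10 genes, with blue circles for the 2 RM- samples and red diamonds for the 2 RM+ samples, and a line between group means. *CDKN1A* moves from 364 to 790 on this scale, past *PHLDA3* and *TP53I3*, and *PLK2* is the highest in both groups.

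Within batch 1 all 10 genes were higher in RM+, and within batch 2 all but *CCNG1* were. For *CDKN1A* the log2 fold change was 1.03 in batch 1 and 1.21 in batch 2, for *TP53INP1* 1.03 and 0.93, and for *MDM2* 0.58 and 0.55. *ZMAT3* had 0.75 and 0.62, and *PHLDA3* 0.42 and 0.56. The batches were further apart for *BTG2* (0.43 and 0.76), *PPM1D* (0.04 and 0.38) and *TP53I3* (0.30 and 0.11). *PLK2* had 0.14 and 0.03, and *CCNG1* 0.06 and -0.01.

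The comparison of batch 2 with batch 1, adjusted for RM, was not the one in view when the genes were chosen, and it was tested. The batch difference is part of the spread between replicates in the RM comparison. The choice may thus favour genes with small batch differences, and the batch result of the members is not independent of it. Between batches 368 genes, or 2.09% of those tested, were called, 60 higher and 308 lower in batch 2. Higher calls made up 0.34% of the tested genes. DESeq2 called 21. The limma fit left 1 residual degree of freedom, and its spread comes from the trend over all genes. Its calls and intervals thus do not rest on the replicate spread of each gene. None of the 10 members was called by limma, edgeR or DESeq2, and none had an unadjusted p under 0.05 by any of them. Their log2 fold changes, batch 2 over batch 1, lay between -0.16 for *BTG2* and 0.18 for *ZMAT3*. *ZMAT3* came closest to a call, with a 95% interval of -0.0014 to 0.357 and a limma adjusted p of 0.378, and it was higher in batch 2 in both groups. *CDKN1A* had -0.10 (95% interval -0.246 to 0.041, limma adjusted p = 0.569). A missed threshold does not show that a member was equal between batches. In the same comparison 12 of 13 mitochondrially encoded mRNAs were called lower in batch 2 by limma and by edgeR, 7 by DESeq2 and none by limma without RM as a covariate (12 at an unadjusted p under 0.05) or without the filter on low values (13), with a median log2 fold change of -0.69. Between RM+ and RM- the median of these 13 mRNAs was -0.44, and none was called by limma, edgeR or DESeq2 (7, 3 and 0 at an unadjusted p under 0.05). With batch as a block 11 were called lower by limma, beside 4.63% of all tested genes. The median was 0.0046 without RM+ replicate 2 and -0.19 without RM- replicate 1, with none called, -0.85 without RM+ replicate 1, with 11 called lower, and -0.69 without RM- replicate 2, with 7 called lower.

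**Figure D3:**
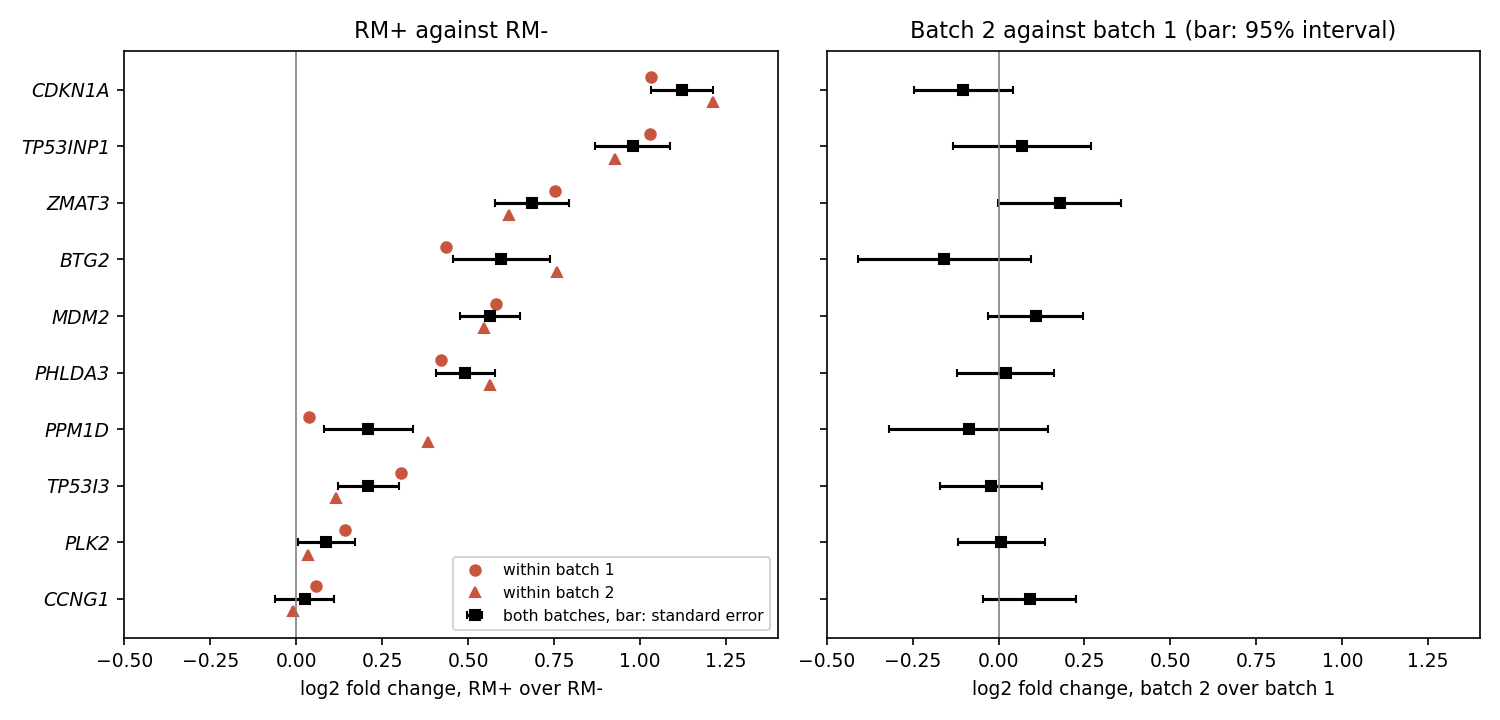
Log2 fold changes of the 10 genes, at left RM+ over RM- with SE bars (black squares) and the values within each batch (red circles and triangles), at right batch 2 over batch 1 with 95% intervals. The left values run from 0.02 to 1.12, the right values from -0.16 to 0.18, and every interval at right includes 0.

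The promoters of 8 of the 10 genes matched the RefSeq table of promoter windows (GRCh38.p14, 250 bases before to 50 after the start of a transcript), and *PHLDA3* and *TP53INP1* did not match. They were searched for the p53 half-site, a motif of 10 bases that equals its own reverse complement, so both strands are read at once. An exact half-site stood in 1 of the 8 genes, *PLK2*, or 12.5%, against 8.06% of 27305 genes with a window. With up to 1 mismatch, 7 of the 8 genes had a match, against 68.5% of all genes. Half-sites with the core CATG were found in none of the 8 and in 1.95% of all genes. Of 30 other p53 targets with a window, 7 had an exact half-site (23.3%) and 2 had one with the core CATG (6.67%). With up to 1 mismatch 21 of the 30 had a match (70%), near the 68.5% of all genes. Such a match is a description of letters and not evidence of binding.

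Shown are the 250 bases before the start for the member with the largest fold change (*CDKN1A*), for the internal promoter of *MDM2*, which is known as its p53-responsive promoter, and for the only member with an exact half-site (*PLK2*, with one of the smallest fold changes). They read 5′ to 3′ on the strand of the gene, from chr6:36678464-36678713 (plus strand), chr12:68808767-68809016 (plus strand) and chr5:58460087-58460336 (minus strand). Capitals mark the exact half-site in *PLK2* and the matches with 1 mismatch in *MDM2*. Nothing is capitalised in *CDKN1A*, whose window held no match with up to 1 mismatch.
CDKN1A: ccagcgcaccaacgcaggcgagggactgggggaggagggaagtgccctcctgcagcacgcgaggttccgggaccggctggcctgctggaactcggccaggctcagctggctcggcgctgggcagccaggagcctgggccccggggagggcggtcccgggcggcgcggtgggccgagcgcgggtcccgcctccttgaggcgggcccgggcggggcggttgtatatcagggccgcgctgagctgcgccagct
MDM2: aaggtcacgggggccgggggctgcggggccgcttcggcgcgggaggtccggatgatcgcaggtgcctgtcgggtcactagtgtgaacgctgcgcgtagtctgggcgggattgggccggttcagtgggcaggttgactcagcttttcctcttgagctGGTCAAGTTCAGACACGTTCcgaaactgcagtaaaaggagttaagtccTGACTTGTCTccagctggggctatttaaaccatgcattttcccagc
PLK2: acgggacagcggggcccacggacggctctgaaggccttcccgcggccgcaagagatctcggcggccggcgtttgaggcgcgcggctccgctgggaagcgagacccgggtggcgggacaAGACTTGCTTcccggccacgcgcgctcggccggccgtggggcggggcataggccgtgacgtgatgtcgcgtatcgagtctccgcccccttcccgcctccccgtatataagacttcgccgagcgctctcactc

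In *MDM2* the first pair of matches, GGTCAAGTTC and AGACACGTTC, adjoin each other 94 and 84 bases before this start, as paired p53 half-sites do, and the next, TGACTTGTCT, begins 46 bases before it. In *PLK2* the exact match AGACTTGCTT begins 132 bases before the start. A match with 1 mismatch, GGACAAGACT, begins 137 bases before the start, overlaps the exact match and is not marked by capitals as a match. The gene with the exact match had a log2 fold change of 0.09, and the gene with no match in its window had 1.12. Only the promoter windows were searched, so p53 sites of *CDKN1A* further from this start would not have been found. Whether matches and fold changes are related was not tested. The *CDKN1A* window lies inside the annotated span of the gene, since longer transcripts begin upstream of it.

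In the deposited table, on GRCh38, *CDKN1A* (ENSG00000124762) spans chr6:36676460-36687337, *MDM2* (ENSG00000135679) chr12:68808177-68845544, *PPM1D* (ENSG00000170836) chr17:60600193-60666280 and *CCNG1* (ENSG00000113328) chr5:163437569-163446151, all on the plus strand, as does *BTG2* (ENSG00000159388) at chr1:203305491-203309602. On the minus strand lie *TP53INP1* (ENSG00000164938, chr8:94925972-94949378), *TP53I3* (ENSG00000115129, chr2:24077433-24085861), *ZMAT3* (ENSG00000172667, chr3:178960121-179072215), *PHLDA3* (ENSG00000174307, chr1:201464278-201469237) and *PLK2* (ENSG00000145632, chr5:58453982-58460139). The counts cover whole genes, so they do not tell one promoter from another.

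Genes that overlap a member or lie within 50 kb of one were also examined, 20 of 30 of which were tested. The median log2 fold change of the 20 was -0.09, and 1 was called, beside 2.26% of all tested genes. With batch as a block 4 were called, all higher, beside 5.1% of all tested genes called higher. The gene called in both fits, ENSG00000257181, has no symbol and overlaps *MDM2* on the opposite strand. It had a log2 fold change of 0.67 (SE 0.12, limma adjusted p = 0.00523) at a mean of 419 normalized counts. *CPM*, a carboxypeptidase gene that also overlaps *MDM2* on the opposite strand, had 152 and 170.2 normalized counts in RM- and 233 and 236 in RM+. Its log2 fold change was 0.54 (SE 0.15) with a limma adjusted p of 0.0717, and 0.00506 with batch as a block. The others called only with the block were *SLC35E3*, beside *MDM2* (0.34, SE 0.10, limma adjusted p = 0.0794 without the block), and *CCNE2*, near *TP53INP1* (0.46, SE 0.16, 0.166 without it), both named after their values were seen. The library kit marks strand, but no source used here gives the strand setting of the counting, so whether reads of *MDM2* and of these genes were kept apart is not known.

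Similarly, *NDUFAF6*, an assembly factor of respiratory complex I, overlaps *TP53INP1* on the opposite strand, with a log2 fold change of 0.31 (SE 0.13, limma adjusted p = 0.268). *FAM228B* overlaps *TP53I3* on the opposite strand with 0.20 (SE 0.12, limma adjusted p = 0.490). *DINOL*, a noncoding RNA gene that overlaps *CDKN1A* on the opposite strand and whose RNA is known to bind p53, had a mean of only 1.01 normalized counts and was not tested.

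Other p53 targets were described from 3 lists that hold none of the 10 genes, 39 genes in all, of which 37 were tested. Of these 11 were called higher by limma (1.46% of all tested genes were) and none lower. A log2 fold change above 0 was found in 35 (49.3% of all tested genes), and the median was 0.35. With batch as a block 23 were called higher (limma), against 5.1% of all tested genes in that fit. The lists were set with earlier results of these data known, so their counts are not independent evidence of direction.

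Among the other arrest and feedback targets, 3 of 9 tested genes were called higher. All 9 had a log2 fold change above 0, with a median of 0.49. *SFN* encodes stratifin, which holds cell cycle proteins in the cytoplasm. It had 1674 and 1605.0 normalized counts in RM- and 2217 and 2426 in RM+ (log2 fold change 0.50, SE 0.09, limma adjusted p = 0.00467). *GADD45A*, a stress sensor that inhibits the G2/M kinase complex, had 387 and 357 in RM- and 549 and 523 in RM+ (0.53, SE 0.11, limma adjusted p = 0.0180). Without RM- replicate 2 it had 0.47 and was not called (limma adjusted p = 0.0626). *GDF15*, a secreted stress cytokine, had 5944 and 4765 in RM- and 7451 and 7487 in RM+ (0.49, SE 0.10, limma adjusted p = 0.0140). Without RM- replicate 2 it had 0.33 and was not called (limma adjusted p = 0.126).

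Among death targets 3 of 14 tested genes were called higher, and 13 had a log2 fold change above 0, with a median of 0.30. *FAS*, the death receptor, had a log2 fold change of 0.62 (SE 0.12, limma adjusted p = 0.00928), with 319 and 300.2 normalized counts in RM- and 454 and 498 in RM+. *BAX*, which permeabilises the outer mitochondrial membrane, had 0.37 (SE 0.08, limma adjusted p = 0.0257). *AEN*, an apoptosis-enhancing nuclease, had 0.38 (SE 0.09, limma adjusted p = 0.0304). *BAX* and *AEN* were no longer called without RM- replicate 2 (limma adjusted p = 0.103 and 0.149), *BAX* also not without RM+ replicate 2 (0.102) and *AEN* not without RM+ replicate 1 (0.0804).

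Among repair and metabolic targets 5 of 14 were called higher, and 13 had a log2 fold change above 0, with a median of 0.37. *SPATA18*, a factor of mitochondrial quality control, had a log2 fold change of 1.10 (SE 0.13, limma adjusted p = 0.000237), the size of that of *CDKN1A*, with 203 and 212 normalized counts in RM- and 425 and 470.5 in RM+. *SESN2* and *SESN1*, sestrins that restrain mTORC1, had 1.02 (SE 0.14, limma adjusted p = 0.00102) and 0.65 (SE 0.14, limma adjusted p = 0.0161). *FDXR*, ferredoxin reductase, had 0.63 (SE 0.09, limma adjusted p = 0.00180) and *DDB2*, a sensor of ultraviolet lesions, 0.44 (SE 0.09, limma adjusted p = 0.0143). *SESN1* was not called without RM+ replicate 2 (limma adjusted p = 0.0665).

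**Figure D4:**
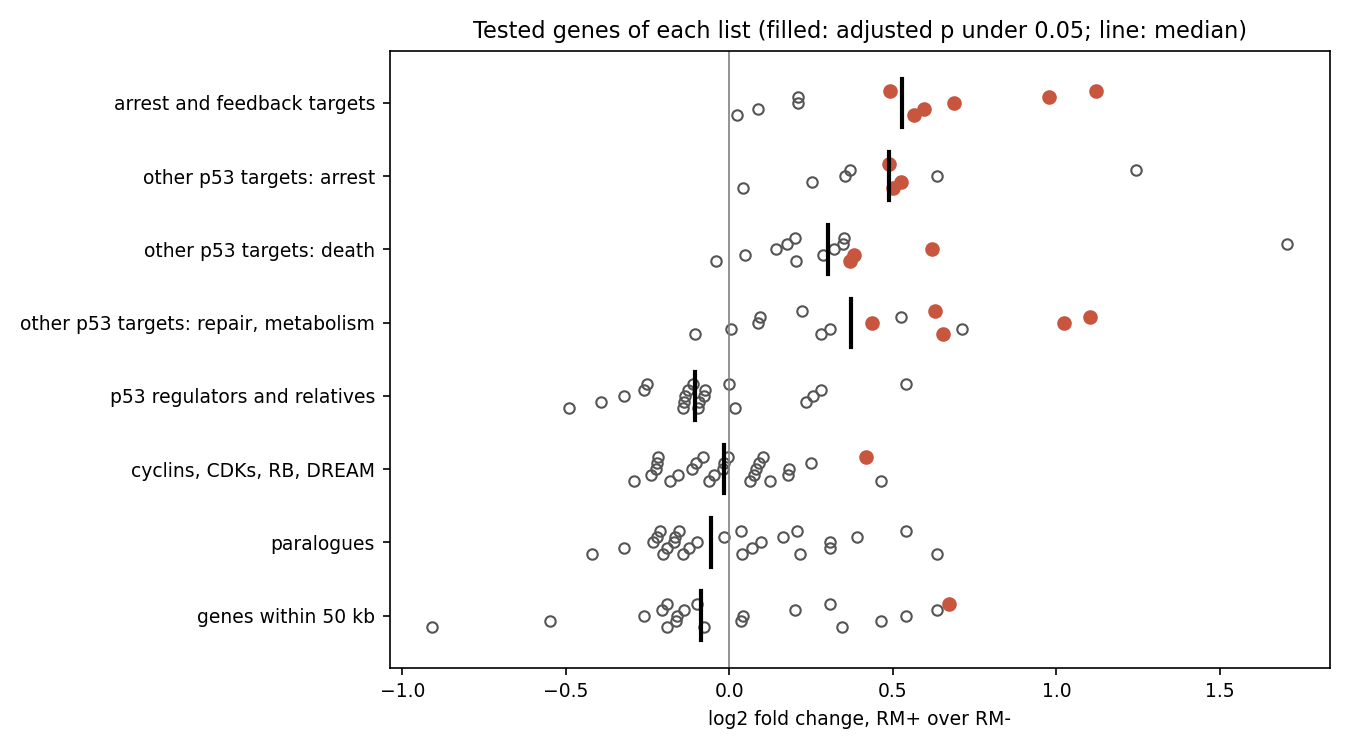
Log2 fold changes, RM+ over RM-, of the tested genes of 8 lists, filled where the limma adjusted p is under 0.05, with a line at each median. The medians are 0.53 for the 10 arrest and feedback targets and 0.49, 0.30 and 0.37 for the other p53 target lists, and between -0.10 and -0.02 for regulators, cell cycle genes, paralogues and neighbours. *PLK3*, *MDM4* and *CCNE2* stand in more than 1 list.

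Of 20 tested genes of the list of p53 regulators and relatives, none was called by limma, edgeR or DESeq2, with 7, 7 and 4 genes at an unadjusted p under 0.05. Of all tested genes, 14.5%, 14.8% and 8.71% had such a p by these tools. The median log2 fold change of the list was -0.10. The smallest p belonged to *PPP1R13L*, which encodes the p53 inhibitor iASPP, with 382 and 304 in RM- and 251 and 234 in RM+ (-0.49, SE 0.14, limma adjusted p = 0.0850). It was followed by the acetyltransferase genes *EP300* (0.28, SE 0.08, limma adjusted p = 0.109) and *CREBBP* (0.23, SE 0.08, limma adjusted p = 0.189). *MDM4*, a relative of *MDM2* that also inhibits p53, had 529 and 492 in RM- and 475.5 and 350.4 in RM+ (-0.32, SE 0.13, limma adjusted p = 0.267).

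With batch as a block, 5 of these 20 genes were called, 2 higher and 3 lower, beside 9.74% of all tested genes called in that fit, 5.1% higher and 4.63% lower. They included *PPP1R13L* (limma adjusted p = 0.00209), *EP300* (0.00149), *CREBBP* (0.0144) and *MDM4* (0.0260). *MDM4* had -0.54 without RM+ replicate 1 and was then called (limma adjusted p = 0.0178), and -0.10 without RM+ replicate 2 (0.864). *PPP1R13L* had -0.65 without RM- replicate 2 and was then called (limma adjusted p = 0.0191), and -0.32 without RM- replicate 1 (0.377). *MDM4* lay in the direction opposite to *MDM2* in both batches, with log2 fold changes of -0.15 and -0.49 against 0.58 and 0.55, and the difference between the genes was not tested.

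Paralogues of the members were examined because they share sequence or domains with them. Of 26 tested, none was called by limma, edgeR or DESeq2, with 8, 9 and 5 at an unadjusted p under 0.05, and the median log2 fold change was -0.06. Of the p21 relatives that also inhibit CDKs, *CDKN1B*, which encodes p27, had 1036 and 1089 normalized counts in RM- and 907 and 937 in RM+ (-0.20, SE 0.09, limma adjusted p = 0.311). *CDKN1C*, which encodes p57, had 38.3 and 22.0 in RM- and 24.4 and 27.3 in RM+ (-0.17, SE 0.36, limma adjusted p = 0.900). *CDKN2A* was not analysed here.

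The paralogue with the smallest p was *PLK3*, a polo-like kinase and itself a p53 target, with 155 and 109 in RM- and 206 and 199 in RM+ (0.63, SE 0.18, limma adjusted p = 0.0834). Next were *CRYZ*, a quinone reductase related to *TP53I3*, with -0.23 (SE 0.08, limma adjusted p = 0.196), and *BTG1*, a relative of *BTG2*, with -0.22 (SE 0.08, limma adjusted p = 0.218). *PLK3* had 0.89 without RM- replicate 1 and was then called (limma adjusted p = 0.00248), and 0.38 without RM- replicate 2 (0.453). With batch as a block, where 9.74% of all tested genes were called, 5 paralogues were called, 2 higher and 3 lower, *PLK3* (limma adjusted p = 0.00179), *CRYZ* (0.0112) and *BTG1* (0.0213) among them.

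Of 26 tested cyclins, CDKs and members of the RB and DREAM complexes, through which p21 acts on transcription, 1 was called by limma. Of all tested genes 2.26% were called in either direction. At an unadjusted p under 0.05 there were 9 of the 26 genes by limma, beside 14.5% of all tested genes. The log2 fold change was above 0 in 11 and below 0 in 15, with a median of -0.02. *CCNE1*, cyclin E1, a partner of the kinase that p21 inhibits, had 513.5 and 476 normalized counts in RM- and 684 and 639 in RM+ (0.42, SE 0.10, limma adjusted p = 0.0460). The call was lost with edgeR (adjusted p = 0.0554), with DESeq2 (adjusted p = 0.0848), with TMM scaling (limma adjusted p = 0.0579) and without RM- replicate 2 or either RM+ replicate (limma adjusted p = 0.0535 to 0.170). With batch as a block 8 of the 26 genes were called, 3 higher and 5 lower, beside 9.74% of all tested genes.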

How the data were processed

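A549 cells in two-dimensional culture were sequenced as polyadenylated RNA, 2 samples with RM and 2 without, grouped by the treatment label. Tools listed in the submitters' processing notes are HISAT2 2.1.0, featureCounts 1.6.3, DESeq2 1.24.0, Trimmomatic 0.38 and FastQC 0.11.7, with the build GRCh38. The release of the annotation and the strandedness of the counting were not given in the sources used here. The deposited signal per sample is the gene count divided by the DESeq2 size factor of that sample. The other deposited columns hold the score of the authors' mean over samples, and the log2 fold change, standard error, Wald score and p-value of their own comparison, and were not used. Of the symbols 47 had been turned into numbers, and 30820 of 30843 gene identifiers matched the table of names. Exon lengths came from the reference annotation, for 29322 genes.

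To recover reads, each column was divided by the smallest non-zero value in it, and 100% of the values were whole within 1e-06. A gene was kept if 2 or more samples had 10 or more normalized counts, which left 17632 genes. These were tested two-sided by limma 3.58.1 (R 4.3.3, limma-trend) after log2(normalized count + 1), and genes were called at a Benjamini-Hochberg adjusted p under 0.05. This scale understates changes of low genes. The test had 2 residual degrees of freedom and a prior of 14.8. An exact permutation of 2 samples against 2 cannot go below p = 0.333 and was not used. Batches were compared with RM as a covariate. This fit and the replicate block hold the same terms, with 1 residual degree of freedom and an infinite prior. The replicate number is the batch in the labels and pairs the samples: deviations of same-numbered samples from the group means had a correlation of 0.168 across 17632 genes, which are not independent, and 0.314 across the 10289 genes with a mean over 200. Alternatives were edgeR 4.0.16 and DESeq2 1.42.0 on the recovered reads, TMM scaling, other pseudocounts and filters, the replicate block and leaving out each sample. The fitting steps were tested on simulated data.

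The genes named are the 10 members, the called genes of each list (at most 6) or, where none was called, the 3 with the smallest p, some p53-linked or CDK inhibitor genes given by name (*MDM4*, *CDKN1B*, *CDKN1C* and *CDKN2A* among them, and the result of 1 is not reported here), and neighbours that overlap a member or were called. The members, lists and this rule were chosen with earlier results of these data known. Promoter windows are from RefSeq (GRCh38.p14).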

Additional observations from a re-analysis of the deposited data

Results flagged for a closer look

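In 2 of the tested genes named by rule the RM+ sample lay above its RM- sample in one batch and below it in the other. *CCNG1* had a log2 fold change of 0.0566 in batch 1 and -0.0088 in batch 2, both smaller than its SE of 0.09. *CDKN1C* had -0.6318 in batch 1 and 0.298 in batch 2, at 22.0 to 38.3 normalized counts per sample. Each batch holds 1 sample of a group, and the difference between batches was not tested.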

How the results depend on the processing

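Between RM+ and RM- limma called 398 genes, 258 higher and 140 lower, against 351 with edgeR and 356 with DESeq2. The count was 1717 with batch as a replicate block (900 higher, 817 lower), whose spread is pooled over all genes, and 354 to 622 with 1 sample left out, where the spread of the group with 1 sample is taken from the other group. The highest count came without RM- replicate 1, and without RM+ replicate 1 the split turned to 248 higher and 285 lower. Without the filter on low values the count was 0 (smallest limma adjusted p 0.357, 2911 genes at an unadjusted p under 0.05), and the cause was not tested. The count of other p53 targets called was 11, and became 0 without the filter (25 at an unadjusted p under 0.05), 23 with the block and 8 to 14 with 1 sample left out, lowest without RM- replicate 2. Of the 11, at least 7 were called again under every alternative but the missing filter. Between batches the 368 calls became 21 with DESeq2, 0 without the filter (smallest limma adjusted p 0.717, 1706 at an unadjusted p under 0.05) and 0 without the RM covariate (smallest 0.529, 765 at an unadjusted p under 0.05), and the cause was not tested. Leaving out a sample was not run for batches, since no residual degree of freedom would remain. Of 140 alternative log2 fold changes of the 10 members, 130 stayed within the spread between replicates. The 10 that moved were values within a single batch. With 2 samples per group, leaving out 1 cannot move a value beyond this spread. The replicate block and the filters leave the fold changes unchanged. For these alternatives the outcome was fixed in advance, so the count does not measure stability. The only member to change sign was *CCNG1*, under 3 alternatives. *BTG2* ran from 0.44 to 0.76 with 1 sample left out and was not called without either group's replicate 2. *PPM1D* ran from 0.08 to 0.34.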

Other observations

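Genes of the p53 network near or under the filter on low values gave few reads. *RPRM*, an arrest gene not tested because only 1 sample passed 10, had 1.01 and 2.87 normalized counts in RM- and 8.13 and 11.1 in RM+. *TRIM22* had 15.1 and 16.3 in RM- and 48.8 and 30.3 in RM+ (2.37-fold, limma adjusted p = 0.101), and the decoy death receptor gene *TNFRSF10C* 1.01 and 10.5 in RM- and 14.2 and 15.1 in RM+ (3.26-fold, limma adjusted p = 0.280). Both folds are on the scale of log2(normalized count + 1). These 3 genes were chosen after their values were seen. The noncoding RNA *PANDAR*, near *CDKN1A*, had a mean of 3.50 and *BTG2-DT*, upstream of *BTG2*, a mean of 1.75, and neither was tested.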
